A study of Mus musculus with 9 samples.

Results

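The perilipins and the CIDE proteins are the coat and fusion proteins of the lipid droplet, and their transcripts were followed here in mouse brown fat, in a study that targeted Ucp1 in some of the animals. The 8 genes, Plin1, Plin2, Plin3, Plin4, Plin5, Cidea, Cideb and Cidec, were taken by symbol from a count table of 55416 Ensembl genes, and all 8 were found. Each passed a median of 1 CPM (the count per 1000000 counts of the library). Of them, 5 are perilipins and 3 are CIDE genes.

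The libraries came from interscapular brown adipose tissue of C57BL/6J mice that express Cas9, given as 8 to 10 weeks of age. All were injected into the tissue itself with the adeno-associated virus AAV8 at 1e12 viral genomes per mL, which delivered a guide to Ucp1 (AAV8-UCP1 sgRNA) or a control guide (AAV8-Control sgRNA). The mice were then kept for 14 days at 22 °C. No source used here names the promoter that drives Cas9 or the cells that express it. By the labels, 5 samples got the control and 4 the guide to Ucp1. The 9 columns of the table carry a number and the tissue only, and 0 of these numbers occur in the labels. Therefore no library was given to a guide and no comparison between guides was made. The libraries are lettered A to I here, in the order of the table's columns, as names only. The spread over libraries holds both guides, and what the guide adds to it cannot be told apart from other differences between libraries.

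A lipid droplet is a store of triglyceride under a phospholipid monolayer, and perilipins sit on that surface and set how far lipases can reach the lipid. CIDE proteins gather at the contact between droplets and move lipid from the smaller to the larger. Brown adipocytes hold many small droplets, whose fatty acids fuel heat production in mitochondria.

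Library totals ran from 15460829 to 17909534 counts. The mitochondrial genome took between 22.3% and 33.9% of them. Levels were summed for 15 markers listed for brown adipocytes that are not among the 8 genes (Adipoq, Dio2, Cox8b and others). All 15 had a median of at least 1 CPM, and their summed level lay between 6942 CPM (library D) and 9792 CPM (library I). All 12 muscle, 8 endothelial and 8 fibroblast markers below also reached that median, so it does not test the tissue label. Skeletal muscle transcripts differed most between libraries. The sum of 12 muscle markers was 259 CPM in library B and 4176 CPM in library E, and all 12 were counted in each library. Macrophage markers (10 genes) summed to between 55.3 and 130.8 CPM. White adipocyte markers (10 genes) gave 52.9 to 155.6 CPM, and Hoxc9 and Tcf21 were at 0 in at least 1 library. Endothelial markers (8 genes) gave 454 to 718 CPM and fibroblast markers (8 genes) 184 to 420 CPM. In whole tissue, fewer cells of a type and less RNA per cell cannot be told apart.

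Plin1 and Plin2 are the perilipins with the most counts, and the order between them changed from library to library, as described below. Their upstream sequences are therefore shown, from RefSeq's table for GRCm38.p6, while the submitters' processing notes name GRCm39. Entries were found for 7 of the 8 genes, all but Cidea. The stretches are the part of the 250 bases before the annotated start that lies outside the RefSeq gene, written 5′ to 3′ on the minus strand. They cover chr7:79732905-79733026 for Plin1 and chr4:86670218-86670309 for Plin2. Capitals mark a match to AGGTCA on either strand, the hexamer that nuclear receptors bind as repeats.
Plin1: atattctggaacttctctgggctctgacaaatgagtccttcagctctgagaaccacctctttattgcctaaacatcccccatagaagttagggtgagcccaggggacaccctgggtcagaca
Plin2: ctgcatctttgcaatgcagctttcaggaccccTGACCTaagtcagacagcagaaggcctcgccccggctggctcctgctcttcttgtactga

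Plin2 has this hexamer in reverse, at bases 218 to 213 before the start, and Plin1 has none in its 250 bases. A Plin5 window has it forward, at bases 170 to 165 before that start. AGGTCA was found on either strand in 14.0% of 32851 promoter windows of the same length. The full repeat AGGTCANAGGTCA, searched on both strands, was in 11 windows, none of a perilipin or CIDE gene with an entry. Cidea had no entry and was not searched. CCAAT, also on both strands and overlapping no other match in these genes, was found in Plin2, Plin3, Plin4 and 1 of the Plin5 windows, against 33.8% of all windows. These are matches of letters, and no binding was measured.

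Cidea was the most abundant of the 8 once levels were scaled by length. Levels per kb are CPM divided by the union of exons of GENCODE M21 gene models (GRCm38) in kb, so these levels are approximate. The median level per kb was 1310 for Cidea, the droplet fusion protein known from brown adipocytes. Cidec, which drives the growth of large droplets in adipocytes, had a median of 508 per kb. In each of the 9 libraries Cidea was above Cidec, by 2.34 to 3.32 times, and Cidec was above Plin1, by 1.47 to 2.62 times.

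Plin1, the coat protein that guards adipocyte droplets and releases Abhd5 on adrenergic signals, had a median of 239.9 per kb. Plin2, the coat protein of most cell types, had 208 per kb. These neighbours did not keep an order: Plin1 was above Plin2 in 5 libraries and below it in the other 4, which were I, F, G and H. With the longest transcript as the length, Plin2 was above Plin1 in 5 libraries, library E being added. Without any length, Plin2 had more counts in 2 libraries, I and F.

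Plin5 and Plin4 followed, with medians of 80.9 and 70.8 per kb. Plin5 links droplets to mitochondria in oxidative tissues, and Plin4 coats small new droplets of adipocytes. They too had no fixed order per kb, as Plin5 was higher in 5 of 9 libraries, and in 6 with the longest transcript as the length. Without any length, Plin5 had more counts than Plin4 in 0 of 9 libraries. Plin3, which moves between cytosol and droplets in most cells, had 18.0 per kb. Cideb, best known for lipid loading of lipoproteins in liver, was lowest at 5.07 per kb, and Plin3 was above it in 9 of 9 libraries.

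**Figure D1:**
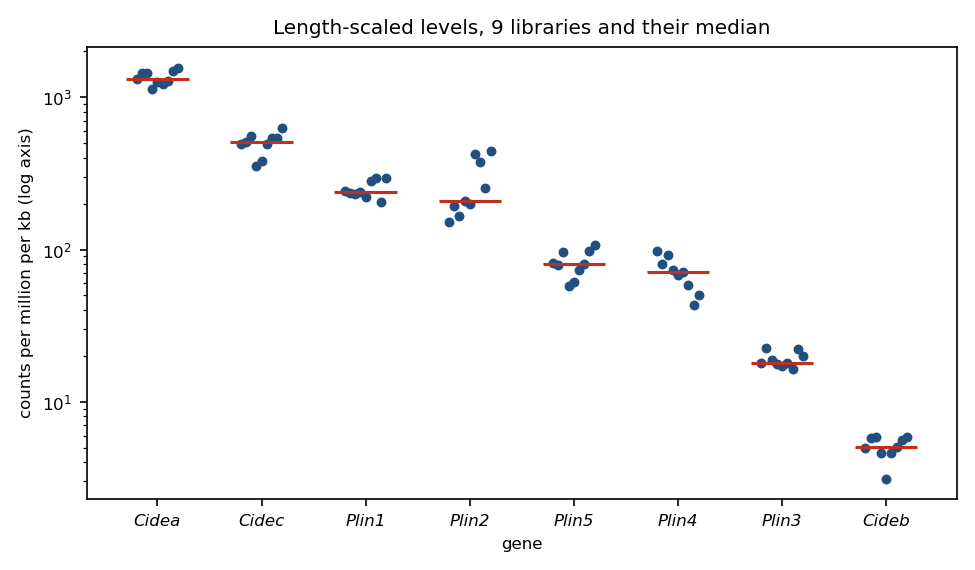
CPM per kb (log axis) for the 8 genes, ordered by median. Each point is 1 of the 9 libraries and the red bar is their median. Cidea lies above Cidec in each library, while Plin1 and Plin2, and Plin5 and Plin4, overlap.

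Plin2 varied most of the 8. Its level was 536 CPM in library A, 581 in C, 683 in B, 695 in E, 731 in D, 895 in H, 1316 in G, 1495 in F and 1549 in I. Libraries I, F and G stood well above the median of 731 CPM, H was next at 895 CPM, and the rest had at most 731 CPM. The highest library had 2.89 times the lowest. This is more than in 87.0% of the 12138 genes with a median of at least 1 CPM, whose median ratio was 1.69, and more than in 73.0% of the 14910 genes counted in all libraries. Among the 182 genes within a factor of 2 of its level, the ratio was above that of 97.3%.

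Plin4 was the second most variable, in nearly the reverse order of libraries. It was highest in library A (564 CPM), followed by C (532), B (465), D (423), F (409), E (393), G (337), I (291) and H (248). The ratio of highest to lowest was 2.27, above 90.6% of 395 genes of like level. Library A thus held the most Plin4 and the least Plin2. Plin4 overlaps Hdgfl2 on the opposite strand in GENCODE M21. The strand setting of the counting is unknown, and Hdgfl2 had 282 to 408 counts, so reads of these genes cannot be told apart where they overlap. Plin4 had at least 4411 counts.

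Plin1 itself varied less than Plin2 and Plin4. Its lowest level was 959 CPM (library H), its median 1115 and its highest 1371 CPM (library I), a ratio of 1.43. Libraries I, G and F, at 1371, 1365 and 1314 CPM, were apart from the other 6, which lay between 959 and 1127 CPM. This ratio was near the median of 1.47 for 121 genes of like level, and above that of 40.5% of them.

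Plin5 ran from 119.8 CPM in library D over a median of 169 to 222 CPM in library I, a ratio of 1.86. This was above 83.0% of 1162 genes of like level. Library E was second lowest at 128 CPM. Plin3 had the narrowest range of the perilipins in CPM, from 61.7 CPM (library G) to 85.5 CPM (library B), with a median of 68.1 CPM. Its ratio of 1.39 was above 28.6% of 2811 genes of like level. Under each of the other scalings used below, the ratio of Plin3 was slightly above that of Plin1 (1.47 against 1.44 with TMM). Library H, at 84.1 CPM, was the only other above 80 CPM of Plin3.

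Cidea had the smallest ratio of the 8, at 1.38, above 31.0% of 87 genes of like level. It went from 1265 CPM in library D to 1749 CPM in library I, with a median of 1461 CPM. Cidec spanned 656 CPM (library D) to 1172 CPM (library I), a ratio of 1.79, above 82.4% of 142 genes of like level. Libraries D and E, at 656 and 707 CPM, were low for Cidec, and the other 7 had at least 917 CPM. Cidea overlaps the non-coding gene B430212C06Rik, antisense to it, which had 131 to 302 counts against at least 21628 of Cidea.

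Cideb was near the limit of precision. Its counts were 72 to 154 per library, or 4.66 to 8.68 CPM. In library E, the lowest, the 95% Wilson interval was 3.70 to 5.86 CPM, and in library I, the highest, 7.42 to 10.2 CPM. Such intervals cover counting error only. Of the 36 pairs of libraries, 6 had intervals of Cideb that did not overlap, against 35 for Plin2, 34 for Plin4 and for Cidea, 32 for Plin1, 30 for Plin5 and for Cidec, and 19 for Plin3. These numbers depend on the depth of counts as well as on spread, as Cidea, with the smallest ratio, equalled Plin4. No share over all genes is given beside them, so they are not read as particular to these genes. Cideb also overlaps Nop9 on the opposite strand, with 103 to 164 counts of its own, so its small count is uncertain.

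**Figure D2:**
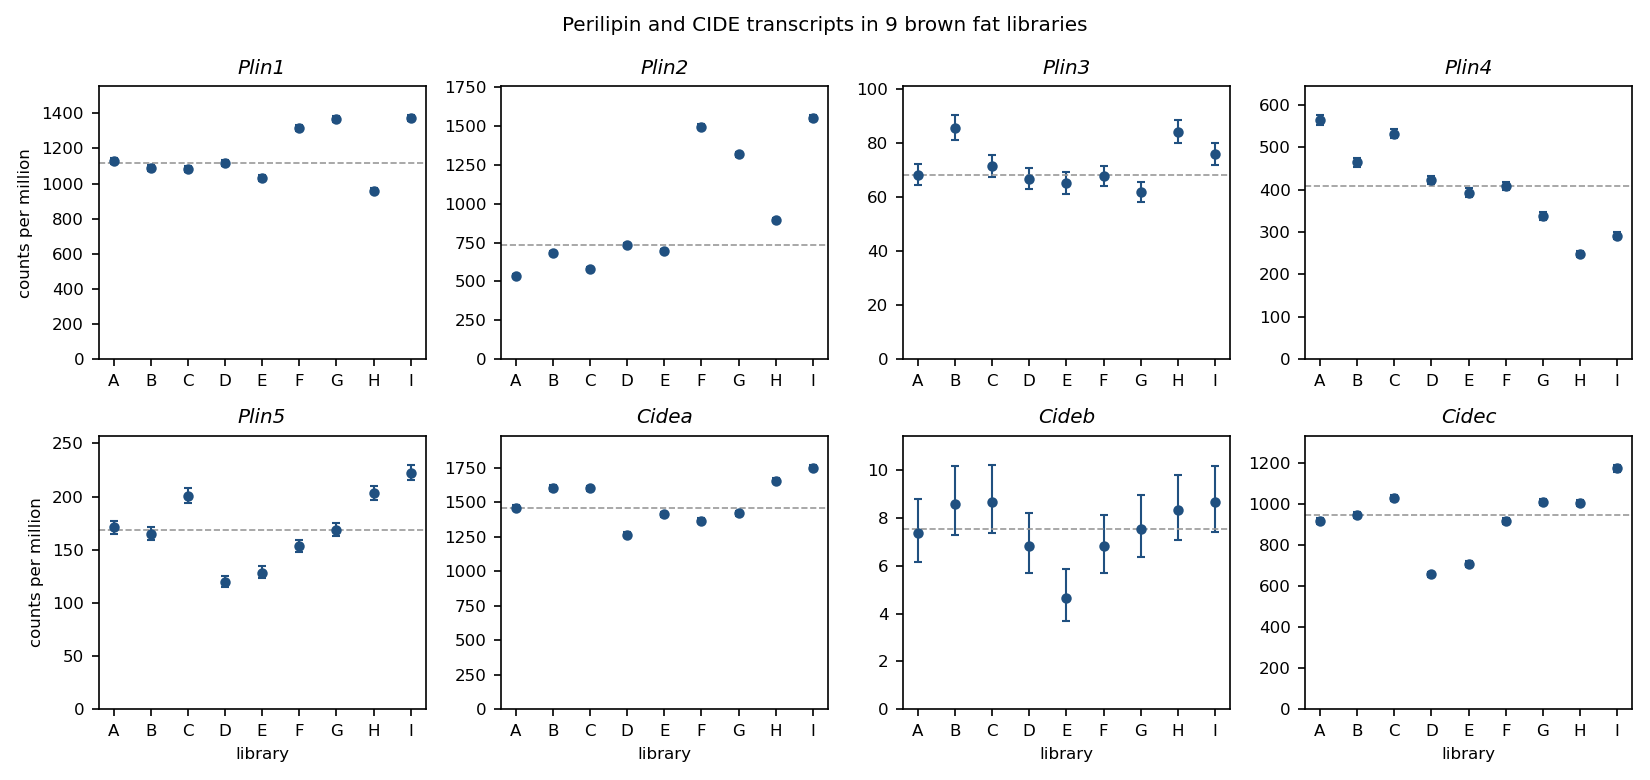
CPM of each gene (vertical axes from 0) in the 9 libraries, lettered A to I. Bars are 95% Wilson intervals of counting error and dashed lines the median. Plin2 spans 536 to 1549 and Plin4 248 to 564, while Cidea and Plin1 stay within a ratio of 1.5.

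The shares within each family do not depend on how libraries are scaled. Of all perilipin counts, Plin2 took 21.7% in library A and 44.1% in library I, with a median of 30.0%. The share of Plin4 was 22.9% in library A and 8.30% in library I, with a median of 17.0%. Plin1 held 38.2% to 45.7% and was the largest share in 7 libraries, Plin2 being larger in I and F. Plin5 ranged from 4.46% to 8.51% and Plin3 from 1.90% to 3.52%.

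The count ratio of Plin2 to Plin4 was 0.951 in library A and 5.32 in library I, a change of 5.59 times. This was the widest of the 6 ratios computed between pairs of these genes. The ratio of Plin2 to Plin1 ran from 0.476 (library A) to 1.14 (library F). Counts of Cidec over those of Cidea, the narrowest of the 6, stayed between 0.501 (library E) and 0.710 (library G).

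Among the CIDE genes, Cidea made up 58.3% to 66.5% of counts, Cidec 33.3% to 41.4% and Cideb 0.219% to 0.355%. Summed over the family, perilipins gave 2314 CPM in library E, 2467 CPM at the median and 3510 CPM in library I. Libraries I, F and G had perilipin sums of at least 3248 CPM, and the other 6 had at most 2487 CPM. The CIDE sum was 1928 CPM in library D, 2434 CPM at the median and 2930 CPM in library I.

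**Figure D3:**
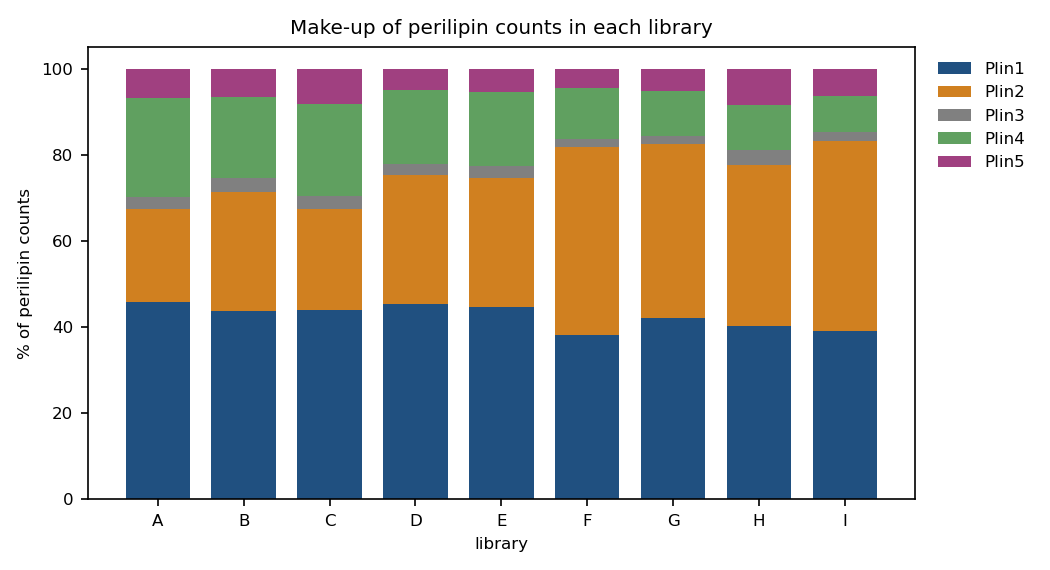
Share of each perilipin in the summed perilipin counts (percent, stacked to the whole) for each of the 9 libraries. The Plin2 part ranges from 21.7% to 44.1% and the Plin4 part from 8.30% to 22.9%.

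The highest library was I for 6 of the 8 genes, all but Plin3 and Plin4. The share of all genes that were highest in library I is not given, so this count is not read as particular to the 8. With TMM scaling or DESeq2 size factors it was highest for 5. It was highest for none when the mitochondrial genome and Ucp1 were left out of the total, which raised levels by 0.37 to 0.61 on the log2 scale, by library. The same library had the highest summed brown adipocyte markers, 9792 CPM, and library D, lowest for Plin5, Cidea and Cidec, had the lowest, 6942 CPM. Library D was lowest for none of the 8 with TMM scaling, and for Plin5 and Cidec only with DESeq2 size factors and with the smaller total. The marker sums were computed in CPM only, and their part in the differences was not tested.

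**Figure D4:**
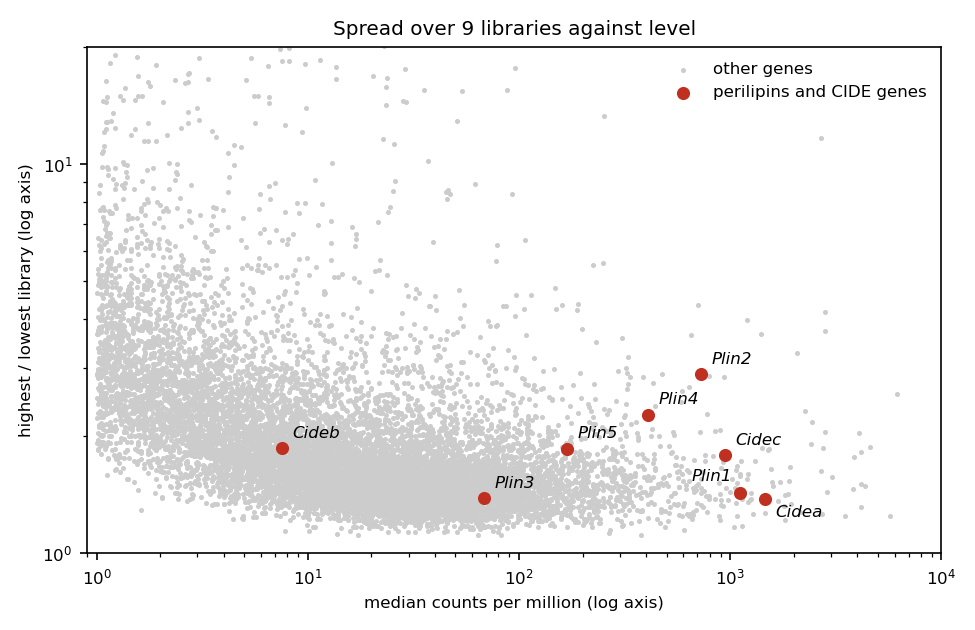
Ratio of the highest to the lowest of 9 libraries against median CPM (both log axes). Grey points are genes with a median of at least 1 and red points the 8 perilipin and CIDE genes. Not drawn are 93 genes with a ratio above 20, 6 with a count of 0, and any with a median beyond the axis. Plin2 and Plin4 lie above most genes of like level.

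Levels were then compared between genes across libraries, for the 21 pairs in which neither gene had values split by a gap of over 50% of its log2 range. Cideb had such a gap, 60.5%, and its 7 pairs were left out. Plin5 rose with both fusion genes. For Plin5 and Cidec, Spearman's rho was 0.88 (n = 9, exact permutation p = 0.00308, adjusted p = 0.032 over 21 pairs). Pearson's r of log2(CPM + 0.5) was 0.95 (exact permutation p = 9.1e-05, adjusted p = 0.0019). Without libraries D and I, farthest from the Plin5 median, rho was 0.75 (exact permutation p = 0.066) and r was 0.89 (p = 0.0065).

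For Plin5 and Cidea, rho was also 0.88 (exact permutation p = 0.00308, adjusted p = 0.032) and r was 0.89 (p = 0.00116, adjusted p = 0.012). Leaving out the same libraries gave a rho of 0.75 (exact permutation p = 0.066) and an r of 0.74 (p = 0.052), both unadjusted, so the relation no longer passed. As this left fewer libraries and a narrower range of Plin5, it cannot show how far the relation rests on libraries D and I. With TMM scaling, rho was 0.85 for Plin5 with Cidec (adjusted exact permutation p = 0.13) and 0.75 for Plin5 with Cidea (adjusted p = 0.18). With DESeq2 size factors, rho was 0.85 (adjusted exact permutation p = 0.064) and 0.77 (adjusted p = 0.11). With the total that leaves out Ucp1 and the mitochondrial genome, rho was 0.90 (adjusted exact permutation p = 0.032) and 0.80 (adjusted p = 0.048). The direction was the same under each scaling, and the threshold was missed under TMM and DESeq2.

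Plin2 and Plin4 ran in opposite order, with a rho of -0.80 (exact permutation p = 0.014, adjusted p = 0.072). Their r was -0.66 (exact permutation p = 0.057, adjusted p = 0.20). Without libraries F and I, rho was -0.93 (exact permutation p = 0.0067) and r was -0.75 (p = 0.054). This pair did not pass over 21 pairs. Cidea and Cidec had a rho of 0.80 (exact permutation p = 0.014, adjusted p = 0.072) and an r of 0.80 (p = 0.0056, adjusted p = 0.039). Without libraries D and I their rho was 0.57 (exact permutation p = 0.20) and r was 0.50 (p = 0.25). Plin3 and Cidea had a rho of 0.78 (exact permutation p = 0.017, adjusted p = 0.072) and an r of 0.73 (p = 0.028, adjusted p = 0.12), and a rho of 0.68 (p = 0.11) and r of 0.75 (p = 0.055) without libraries B and H. Of 7449 other named genes with a median of at least 10 CPM, 1.48% had a rho with Plin5 of at least 0.88, and 2.38% had a rho with Plin2 of -0.80 or below. In all, 2 of 21 pairs passed by rho and 3 by r, and 13 of the 21 values of rho were above 0. No share over all pairs of genes is given beside these counts, and the shares above cover rho with Plin5 and Plin2 only. The counts are therefore not read as particular to these genes. No pair passed by rho when any 1 of libraries C, D, E, F or I was left out, with 2 to 5 pairs at an unadjusted exact permutation p under 0.05. The rho of Plin5 with Cidea was 0.83 to 0.90 in these 5 cases, with 8 libraries each. Plin5 with Cidea also missed the threshold without library H (rho 0.83, adjusted exact permutation p = 0.051), and Plin5 with Cidec without library B (rho 0.88, adjusted p = 0.075). Without D, E or I, the values of Cidec had a gap of over 50% and its pairs were not tested. The libraries hold both guides, so a shared response to the guide cannot be told apart from other shared variation.

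**Figure D5:**
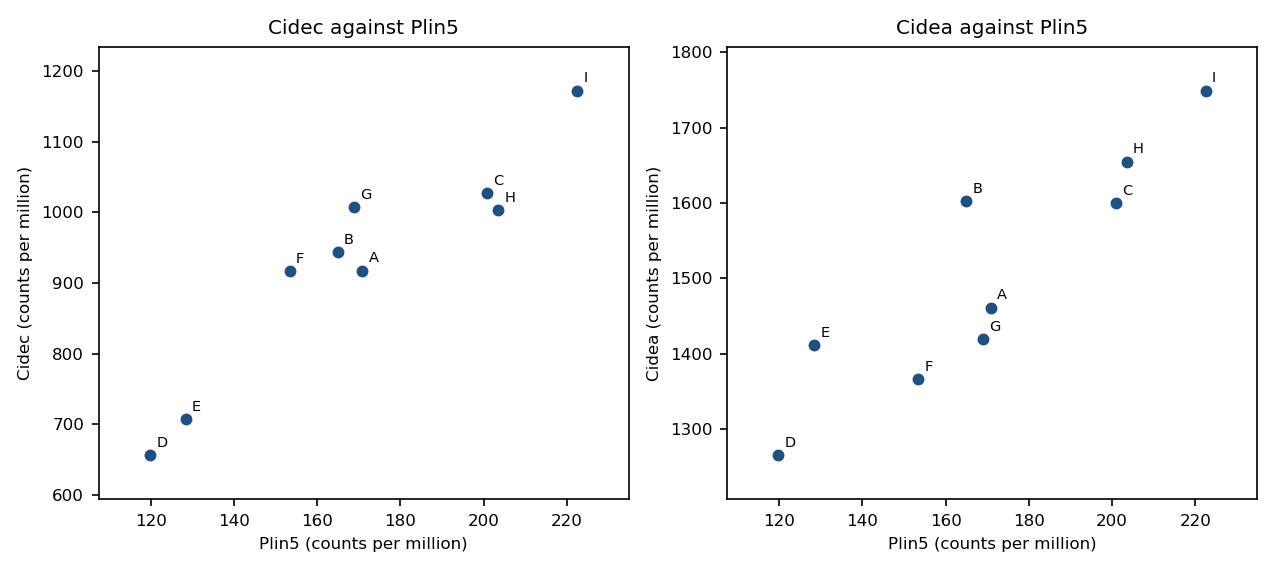
Cidec (left) and Cidea (right) against Plin5, in CPM, with each of the 9 libraries marked by its letter. Axes do not start at 0. Libraries D and I lie at the ends of both plots.

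No pooled correlation with Ucp1 was computed. Ucp1, the uncoupling protein of brown fat mitochondria, ran from 396 to 4620 CPM. Its values fell into separate clusters of fewer than 6 libraries each, so no relation with it was tested here.

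The genes most like each of the 8 were ranked by Pearson's r of log2(CPM + 0.5) over the 9 libraries, among 7450 named genes with a median of at least 10 CPM. This is a description with no test, and the libraries and their totals are shared by all genes. Plin1 was most like Tmem127 (r = 0.96), Clstn3 (0.95) and Vps11 (0.95). For Plin2 they were Rac1 (0.99), Fbxl5 (0.98) and Reep6 (0.97). Plin3 was followed by Cisd3 (0.95), Mrps11 (0.95) and Ndufa10 (0.92), and Plin4 by Eif4b (0.93), Hmgb1 (0.92) and Cdk19 (0.92). Ppard (0.97) was nearest to Plin5, before Agpat5 (0.95) and Tcn2 (0.95). Cidea was most like Galk2 (0.99), Coq9 (0.98) and Pigyl (0.97), and Cidec most like Ephx2 (0.97), Dhrs11 (0.97) and Lyplal1 (0.97). For Cideb, the values were lower, with Tmco4 at 0.92, Naaa at 0.92 and 0610010F05Rik at 0.90. The gap in the values of Cideb, with library E below the others, applies here too, so no likeness is read from these r.

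Other lipid droplet genes gave the setting. Of 24 symbols listed, 23 had a row, and 22 had a median of at least 1 CPM. Pnpla2, the lipase that begins triglyceride breakdown, was highest with a median of 4339 CPM (3441 to 5139). Dgat2, which makes triglyceride, had 1534 CPM (1139 to 2117), and Lipe, the hormone-sensitive lipase, 1481 CPM (1379 to 1892). The lowest were Hsd17b13, with a median of 0 CPM, Hilpda with 1.74 CPM and Fitm1 with 2.35 CPM.

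Among the 21 with more than 3 counts in each library, the ratio of highest to lowest had a median of 1.56. Plin2 exceeded 19 of them. The largest ratios were those of G0s2, an inhibitor of Pnpla2, at 3.57 (142.1 CPM in library D, 507 CPM in B), of Hilpda at 3.46, with as few as 15 counts, and of Tmem159 at 2.41. In CPM, the summed level of the 23 was lowest in library D and highest in library I, as for the CIDE genes. These sums were not computed under the other scalings.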

How the data were processed

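Raw counts per Ensembl gene, as deposited by the authors, were used. The submitters' processing notes list STAR, FastQC, DESeq2 and the build GRCm39, and state neither their roles nor versions. How strand and multiple hits were counted, and on which annotation, is not given. Symbols were matched through GENCODE M21 for 52083 of 55416 identifiers. The 9 columns form 1 tissue group by the abbreviation in their names. Counts were divided by column sums (CPM). Spread is the highest over the lowest library. Correlations used exact two-sided permutation of all pairings with Benjamini-Hochberg adjustment. Alternatives were TMM factors (edgeR 4.0.16) and DESeq2 1.42.0 size factors, used for scaling only, another total, other lengths and leaving out libraries, in Python 3.11.15 with scipy 1.17.1 and R 4.3.3. The ranking and spread steps were run on simulated data with a strong known profile put into some genes. That checks the code only and does not cover the correlations between the 8 genes. Genes and lists were chosen with earlier results of these data known. Named genes are the 8, Ucp1, the 3 most like each, and the 3 highest, 3 lowest and 3 most variable of the droplet list. The labels do not state that each library came from a separate animal, so p-values measure only the spread between libraries. The result of 1 marker list is not reported here.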

Additional observations from a re-analysis of the deposited data

Results flagged for a closer look

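The level of Cideb in library E, 4.66 CPM, lay apart from the other 8 libraries, which started at 6.81 CPM. The gap was 0.535 of the whole range, above Dixon's 95% critical value for 9 samples. Its share of CIDE counts was also lowest there, 0.219% against at least 0.296% elsewhere. The value rests on 72 counts. Library E also had the highest sum of muscle markers, 4176 CPM, and the part of this in the low value was not tested. Chance flags about 1 in 20 groups, and 24 values were looked at, of which 2 were above and come from the same counts.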

How the results depend on the processing

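The count of correlated pairs was the least stable result. It was 2 of 21 as reported, 0 with TMM scaling (3 pairs at unadjusted p under 0.05, 1 by Pearson's r), 0 with DESeq2 size factors (4 unadjusted, 1 by r) and 6 with the total that leaves out Ucp1 and the mitochondrial genome (7 unadjusted, 1 by r). Without libraries E and C, which had the most muscle transcripts, it was 0 (2 unadjusted, 2 by r), an alternative chosen after seeing the data, as were Pearson's r and the longest transcript length. In that setting a gap in the values of Cidec kept its pairs out, so Plin5 with Cidec was not among the 21, and Plin5 with Cidea had a rho of 0.89. Leaving out 1 library at a time gave 0 to 3 pairs. It gave 0 without I, D, F, E or C, 1 without B or H, and 3 without G. As each of these tests fewer libraries, and without I, D, F or H fewer pairs, the counts are not of equal power. No correlation with Ucp1 was run under any alternative.

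Median levels rose by construction with the smaller total. They became 1676 CPM for Plin1, 1098 for Plin2, 100.1 for Plin3, 598 for Plin4 and 242 for Plin5. For Cidea, Cideb and Cidec they became 2204, 11.1 and 1371 CPM. Per kb, the median share became 38.3% for Plin1, 11.7% for Plin5, 72.4% for Cidea and 27.3% for Cidec. The ratio of highest to lowest for Cideb was 1.27 without library E, and also without E and C, and 1.27 to 1.86 over all single omissions. That of Plin2 was 2.47 to 2.87 under the other scalings and 2.67 to 2.89 with a library left out, and that of Plin4 was 2.32 to 2.59 and 1.94 to 2.27. Other levels, spreads and shares moved by less than 1 SD of the libraries. The percentile of the spread fell when all 14910 genes counted in each library were used, to 73.0 for Plin2, 63.1 for Plin4, 50.4 for Plin5, 50.7 for Cideb and 46.9 for Cidec. Counting error is widest for Cideb among the 8, then for Plin3.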

Other observations

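Ucp1 was 396 CPM in library F, 445 in H, 459 in I, 606 in G, 2704 in D, 3652 in E, 3848 in A, 3937 in C and 4620 in B. On the log2 scale the largest gap between neighbours was 2.16 of a range of 3.54, or 60.9%, with 4 libraries below and 5 above. The 4 below, F, H, I and G, also had the most Plin2, at least 895 CPM, against at most 731 CPM in the 5 above. Plin4 and Plin1 did not split in this way. Plin4 was higher in F (409 CPM) than in E (393 CPM), and Plin1 was lowest in H (959 CPM). This was seen after the fact and was not tested. No column was placed in a guide group from these values.

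Fitm1, a droplet formation protein known from muscle, had 1 count in library B, which had the lowest sum of muscle markers (259 CPM). It was highest, at 8.67 CPM, in library E, which had the highest (4176 CPM).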
